A study of Mus musculus with 16 samples.

Results

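The comparison of St2 knockout (St2 KO) with wild-type (WT) group 2 innate lymphoid cells (ILC2) rested on 8 of the 16 RNA sequencing libraries of the study, 4 of each genotype, chosen by their sample titles. ILC2 are tissue-resident lymphocytes that make type 2 cytokines, here sorted from the duodenum, the first 5 cm of small intestine, of untreated C57BL/6 mice aged 6 to 10 weeks and kept free of specific pathogens. WT mice carried the Smart13 reporter on both copies of Il13. St2 KO mice were St2 (-/-) and carried, besides Smart13, the Yarg reporter on both copies of Arg1, which WT mice lacked. Il25 KO mice were Il25 (-/-) with both reporters, and their 4 libraries served as a comparison without the Yarg difference. Alox5 KO mice were Alox5 (-/-) with Smart13 alone, and they entered the model and serve here for levels. The labels give the knockouts with no cell-type-specific driver, so other cells of these mice lacked the gene too. Since nothing ties a library to a mouse of its own, the tests below reflect the spread among libraries, which may be technical.

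IL-33 is a cytokine released by damaged or stressed barrier and stromal cells. It binds ST2, the product of Il1rl1, together with the accessory chain IL1RAP, and signals through MYD88, IRAK kinases and TRAF6 to NF-kB and to the MAP kinases that act on AP-1 factors. NF-kB induces its own inhibitors, among them the IkB proteins and the ubiquitin-editing enzyme A20, so that their transcripts are part of a feedback loop. ILC2 are among the cells with the most ST2, and IL-33 is known for driving their cytokine output, beside IL-25 and leukotrienes.

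Total gene counts of the 8 libraries ranged from 2447504 to 3216937, and 15818 to 16529 genes had a count. The sample codes begin with 1 of 3 letter pairs whose meaning the labels do not give. WT 1, WT 2, St2 KO 1 and St2 KO 2 are in set TS, WT 3 and WT 4 in set TT, and St2 KO 3 and St2 KO 4 in set TY. Set was a term in a model of all 16 libraries, in which Alox5 KO also has libraries in TS and TT and Il25 KO in TS and TY. Within these 8 libraries alone, outside set TS, set and genotype cannot be told apart. The 4 libraries of set TY, 2 of St2 KO and 2 of Il25 KO, had 982 to 1682 counts of Xist and at most 2 of the Y-linked Ddx3y. The other 12 libraries had at most 7 counts of Xist and at least 709 of Ddx3y, so the sexes differed between sets. Transcripts of B and plasma cells, summed over 14 tested markers, came to 2964 ± 172 CPM in WT (SD, n = 4), where CPM is the count scaled to a common library total, and 2074 ± 649 CPM in St2 KO (SD, n = 4). St2 KO 1 had 1108 CPM and the other St2 KO libraries 2281, 2457 and 2450, all below the WT range of 2746 to 3126. Markers of ILC1 and NK cells, 8 tested and 0 called, summed to 1335 to 1412 CPM in WT and 996 to 1222 CPM in St2 KO. Their mean log2 CPM overlapped, at 5.03 to 6.15 in WT and 5.38 to 6.24 in St2 KO. The part of these cells in the results below was not tested.

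The targeted gene did not check the labels. Il1rl1 (ENSMUSG00000026069, GRCm38 chromosome 1, 40429570 to 40465415) was at 247, 210.5, 167 and 237 CPM in WT and 197, 157, 209 and 124 CPM in St2 KO. The groups overlapped, with a log2 fold change of -0.25 ± 0.27 and a 95% interval of -0.82 to 0.33 (adjusted p = 0.89, edgeR's quasi-likelihood test with Benjamini-Hochberg adjustment, as for every adjusted p given here). Counts over a whole gene do not show whether part of it was deleted, so the libraries are called St2 KO from their labels. Il33, which encodes the ligand, had 0 counts in every library. The sorted population carried ILC2 markers in all 8 libraries. In St2 KO their mean log2 level was lower, while their summed level overlapped that of WT. Of 16 ILC2 markers, all tested, 13 had a log2 fold change below 0, against 48.2% of all genes tested, and the median was -0.15. At an adjusted p under 0.05, 1 marker was called (Arg1, which carries the reporter), against 0.298% of all genes tested. Summed, the 16 markers had 8756 to 9482 CPM in WT and 7544 to 8835 CPM in St2 KO. The mean log2 CPM of the 16 markers was 8.30 to 8.41 in WT and 7.57 to 8.06 in St2 KO. Without Arg1 it was 8.30 to 8.42 in WT and 7.83 to 8.26 in St2 KO. The St2 KO range lay below that of WT for Arg1, Id2 and Areg and above it for Icos. Gata3, the transcription factor that sets type 2 identity, was at 629.6, 575, 585 and 572 CPM in WT and 643, 561, 685 and 585 CPM in St2 KO, and the cytokine receptor gene Il7r had a mean of 1162 CPM in WT and 1158 CPM in St2 KO. T cell markers were present as well, with summed levels of 823 to 874 CPM over 10 tested markers in WT and 718 to 817 CPM in St2 KO. Their mean log2 CPM overlapped, at 4.81 to 5.03 in WT and 4.75 to 5.15 in St2 KO. Of 16 macrophage and dendritic cell markers 1 was tested, and of 16 granulocyte and mast cell markers 2 were. In the latter list 11 of the other 14 had 0 counts in these 8 libraries.

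Of 11742 genes tested, 35 were called at an adjusted p under 0.05 in St2 KO against WT, a background of 0.298%. In St2 KO 22 were lower (0.187% of tested genes) and 13 were higher (0.111%), and 880 genes had an unadjusted p under 0.05. The genes that fell included NF-kB inhibitors (Nfkbid, Nfkbia, Nfkbiz, Tnfaip3), the RNA decay factor Zfp36, immediate early genes (Gadd45b, Nr4a1, Ier5, Fosb, Btg2, Gem, Cd69), the kinase gene Map3k8, and the effectors Csf2, Ptgs2 and Arg1. Those that rose included the costimulatory receptor Cd28, the phospholipid enzyme Ptdss1, the protease Ctse and several genes of other or unknown function. All 22 lower genes had every St2 KO library below every WT library, against 5.24% of tested genes. For 11 of the 13 higher genes every St2 KO library lay above every WT library, against 3.36% of tested genes; in Ctse and Cyp26a1 the groups overlapped. Within set TS, where 2 libraries of each genotype share a code, the ranges were apart in the called direction for 35 of 35 genes. Of all tested genes 39.0% had ranges apart there in either direction. The calls came from these same libraries, so separate ranges of called genes follow in part from their selection and are no independent check. Of the 35, 21 passed the test with the 8 libraries of set TS alone. Lower genes not called in that setting were Tnfaip3, Ier5, Gem, Btg2, Mir155hg, Igtp, Zfp948 and Hmgb1-ps8. Higher genes not called in it were Cyp26a1, H60b, Mterf3, Pcna-ps2, Gm10767 and Gm37760. Without WT 1 the count was 19, of which 16 are among the 35, and without WT 2 it was 23, of which 21 are. The 3 libraries of all 16 with the lowest sums of B and plasma cell markers were 2 of Alox5 KO and St2 KO 1. Without those 3 the count was 21, of which 17 are among the 35, 12 of the lower genes and 5 of the higher. In bulk samples a lower level from fewer cells that carry a transcript and one from less RNA per cell cannot be told apart.

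Of 13 tested genes in the list of NF-kB inhibitors and feedback genes, 4 fell and 0 rose. A log2 fold change below 0 was found in 11, with a median of -0.32 against 0.01 over all tested genes. Of all tested genes 48.2% were below 0, 0.187% were called lower and 0.111% were called higher. These are the shares to set beside each such count for this list and those that follow. Nfkbid encodes IkB-NS, an atypical nuclear IkB protein. It was at 444, 401, 365 and 315 CPM in WT 1 to WT 4 and at 63.3, 59.1, 66.1 and 111 CPM in St2 KO 1 to St2 KO 4. St2 KO 4 was the highest of its group, but the groups did not come near each other. The level was 5.47-fold lower (log2 fold change -2.45 ± 0.22, SE, as for every fold change here; adjusted p = 4.61e-06). Nfkbia encodes IkB-alpha, the inhibitor that holds NF-kB in the cytoplasm. Its levels were 754, 696, 684 and 696 CPM in WT and 294, 295, 303 and 313 CPM in St2 KO. The St2 KO libraries spanned less than 20 CPM and the highest of them was below every WT library by more than 300 CPM, a 2.35-fold difference (-1.23 ± 0.11, adjusted p = 4.61e-06). Nfkbiz encodes IkB-zeta, a nuclear cofactor of NF-kB at secondary response genes. Its levels were 953, 864, 865 and 881 CPM in WT and 469, 437, 450.2 and 461 CPM in St2 KO, with no overlap (-0.95 ± 0.095, adjusted p = 1.27e-05). Tnfaip3 encodes A20, which removes activating ubiquitin chains from signalling proteins. It was at 1467, 1269, 1163 and 1267 CPM in WT and 866, 705, 870.0 and 666 CPM in St2 KO. Both groups varied, the ranges stayed apart, and the fold change was smaller than for the IkB genes (-0.76 ± 0.13, adjusted p = 0.00923); the difference between these genes was not tested. The call for Tnfaip3 was lost without WT 1 (adjusted p = 0.0946), without St2 KO 2 (adjusted p = 0.0964) and in set TS alone (adjusted p = 0.0928). The other 9 members were not called. Nfkbib, Bcl3 and N4bp1 had log2 fold changes of -0.32 ± 0.17, -0.36 ± 0.39 and -0.32 ± 0.25. Those of Cyld, Tnip1, Nfkbie, Otud7b, Tax1bp1 and Tnip2 lay between -0.10 and 0.06. Summed over the list, the 4 St2 KO libraries had 3017 to 3246 CPM and the WT libraries 4587 to 5230 CPM. All 4 calls held without the 3 libraries with the fewest B and plasma cell transcripts, a setting chosen after the data were seen.

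Calls in the receptor chain and the core of the pathway are set beside 0.298% of all tested genes called in either direction. At that share a list of 12 usually has 0 calls. Of 12 tested genes from the IL-33 receptor to TAK1, 0 were called, with a median log2 fold change of 0.07. The smallest p-values were those of Tollip, an inhibitor of IRAK1 (0.60 ± 0.24, adjusted p = 0.594), and Il1rap, the accessory chain (0.81 ± 0.39, adjusted p = 0.658). Myd88 was at 145 CPM in WT and 142 CPM in St2 KO (-0.13 ± 0.15). The 18 NF-kB subunits, adaptors and kinases had a median of -0.18, with 15 of 18 below 0. Of these, 1 fell and 0 rose, against 0.187% and 0.111% of all tested genes. That gene was Map3k8, which encodes TPL2, the kinase that links NF-kB p105 to the ERK pathway. Its levels were 178, 128, 138 and 79.4 CPM in WT and 43.1, 29.8, 33.8 and 50.4 CPM in St2 KO. WT 4 was lowest and WT 1 highest among WT, yet WT 4 exceeded each St2 KO library (-1.91 ± 0.27, adjusted p = 0.00125). Traf1, an NF-kB-induced adaptor, was at 389.6, 363, 311 and 315 CPM in WT and 188, 174, 190.2 and 192 CPM in St2 KO (-0.90 ± 0.26, adjusted p = 0.267). Rel, the c-Rel subunit, had -1.17 ± 0.37 (adjusted p = 0.394). Neither was called, though the ranges were apart in both. The subunits Nfkb1, Rela, Relb and Nfkb2 had values of -0.27 ± 0.16, -0.21 ± 0.22, -0.15 ± 0.24 and 0.04 ± 0.23. The kinase complex genes Chuk, Ikbkb and Ikbkg had 0.18 ± 0.17, -0.01 ± 0.12 and -0.09 ± 0.19, and 0 of these 7 were called.

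Promoters of the called genes were searched for the motifs of factors these pathways end in, and 8 genes had a match. RefSeq start-site windows on GRCm38.p6, 250 bases before to 50 after each start, were found for 20 of the 35 called genes, 15 of the 22 lower and 5 of the 13 higher. A gene with several starts was counted if any of its windows matched, here and in the shares over all genes. A match to the kB consensus, on either strand, lay in the windows of 5 of 15 lower genes (33.3%; Nfkbid, Nfkbia, Nr4a1, Tnfaip3 and Fosb) and 0 of 5 higher genes. The share was 6.55% over all 27025 genes with a window and 8.36% over 8650 tested genes. The cAMP response element TGACGTCA was in 2 of 15 lower genes (13.3%; Nfkbid and Btg2) and 0 of 5 higher genes, against 2.03% of all and 3.9% of tested genes. The AP-1 site TGANTCA was in 1 of 15 lower genes (6.67%; Tnfaip3) and 1 of 5 higher genes (AA467197), against 8.97% of all and 5.64% of tested genes. The serum response CArG box was in 1 of 15 lower genes (6.67%; Zfp36) and 0 of 5 higher genes, against 1.81% of all and 1.55% of tested genes. No match overlapped another. The promoters of 7 genes are printed to show where the matches lie, from chr12:55492648-55492897, minus strand (Nfkbia), chr10:19015411-19015660, minus strand (Tnfaip3), chr7:30422156-30422405, plus strand (Nfkbid), chr7:19310046-19310295, minus strand (Fosb), chr7:28379229-28379478, minus strand (Zfp36), chr1:134079156-134079405, minus strand (Btg2) and chr2:122637637-122637886, plus strand (AA467197). Each run is the 250 bases before the start, 5′ to 3′ along the gene, with matches in capitals. The kB consensus lies 29 bases before the start in Nfkbia and 188 bases before it in Fosb. Tnfaip3 has the AP-1 site at 136 bases and then the kB consensus at 12 bases. Nfkbid has the kB consensus at 226 bases and then the cAMP response element at 51 bases, which in Btg2 is at 166 bases. Nfkbid and Tnfaip3 also have windows at other starts, which hold no match and are not printed. In Zfp36 the CArG box is at 58 bases, and in AA467197 the AP-1 site is at 73 bases. The match in Nr4a1 begins 3 bases before the start and runs past it, so it is not within such a run and is not printed. A match describes the letters and shows no binding.
Nfkbia: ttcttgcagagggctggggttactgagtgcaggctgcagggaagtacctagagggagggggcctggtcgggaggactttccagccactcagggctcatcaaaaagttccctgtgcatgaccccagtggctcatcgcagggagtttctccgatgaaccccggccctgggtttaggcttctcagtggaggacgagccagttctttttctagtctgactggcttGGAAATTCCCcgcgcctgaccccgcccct
Tnfaip3: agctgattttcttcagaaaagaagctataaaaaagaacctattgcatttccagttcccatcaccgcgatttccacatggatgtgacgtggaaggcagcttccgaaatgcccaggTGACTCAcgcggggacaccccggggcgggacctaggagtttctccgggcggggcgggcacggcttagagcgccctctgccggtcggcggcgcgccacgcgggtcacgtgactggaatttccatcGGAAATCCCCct
Nfkbid: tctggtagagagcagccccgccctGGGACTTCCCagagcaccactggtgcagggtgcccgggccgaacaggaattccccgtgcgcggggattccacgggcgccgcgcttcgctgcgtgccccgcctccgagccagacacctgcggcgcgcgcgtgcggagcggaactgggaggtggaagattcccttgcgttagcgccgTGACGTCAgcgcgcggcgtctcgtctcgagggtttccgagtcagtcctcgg
Fosb: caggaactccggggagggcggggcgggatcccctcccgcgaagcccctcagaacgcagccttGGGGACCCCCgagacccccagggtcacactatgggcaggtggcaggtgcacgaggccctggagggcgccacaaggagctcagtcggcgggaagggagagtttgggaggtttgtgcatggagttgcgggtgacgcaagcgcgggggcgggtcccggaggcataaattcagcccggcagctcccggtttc
Zfp36: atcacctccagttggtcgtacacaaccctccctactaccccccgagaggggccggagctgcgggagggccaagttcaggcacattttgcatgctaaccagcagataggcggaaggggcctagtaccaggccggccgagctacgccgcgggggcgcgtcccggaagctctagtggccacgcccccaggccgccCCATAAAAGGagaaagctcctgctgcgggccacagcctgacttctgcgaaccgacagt
Btg2: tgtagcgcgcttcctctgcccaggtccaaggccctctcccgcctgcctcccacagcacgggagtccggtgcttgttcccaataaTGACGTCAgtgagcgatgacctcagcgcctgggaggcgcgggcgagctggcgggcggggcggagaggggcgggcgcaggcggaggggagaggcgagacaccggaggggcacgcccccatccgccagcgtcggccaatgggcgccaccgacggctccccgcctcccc
AA467197: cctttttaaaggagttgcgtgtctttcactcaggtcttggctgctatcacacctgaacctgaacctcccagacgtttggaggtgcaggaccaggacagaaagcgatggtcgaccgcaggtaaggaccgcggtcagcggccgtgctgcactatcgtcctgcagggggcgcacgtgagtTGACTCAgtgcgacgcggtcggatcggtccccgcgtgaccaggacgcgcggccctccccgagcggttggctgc

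Zfp36, which encodes tristetraprolin, a protein that binds AU-rich elements and directs cytokine mRNAs to decay, had the smallest p of the called genes after Arg1, which carries a reporter in St2 KO. It was at 554, 505, 457 and 544 CPM in WT and 68.7, 126, 95.1 and 113 CPM in St2 KO. St2 KO 1 was the lowest and St2 KO 2 the highest of the knockout libraries. The lowest WT library had more than 3 times the level of the highest knockout (5.01-fold lower, -2.33 ± 0.16, adjusted p = 8.18e-08). It was the sole member called among 13 tested RNA decay genes, whose median log2 fold change was -0.08. Its paralogs Zfp36l1 and Zfp36l2 had -0.08 ± 0.10 and -0.14 ± 0.25, and Zc3h12a, which encodes the RNase regnase-1, -1.08 ± 0.35 (adjusted p = 0.394). Mir155hg, the host transcript of a microRNA induced on lymphocyte activation, was at 114, 65.9, 84.1 and 58.2 CPM in WT and 24.2, 8.83, 13.9 and 10.2 CPM in St2 KO (-2.25 ± 0.46, adjusted p = 0.0398). Its call was lost in 10 of the 16 fits that leave out 1 library, with an adjusted p of up to 0.285 (without St2 KO 2). The adjusted p was 0.39 in set TS alone and 0.186 without the 3 libraries with the fewest B and plasma cell transcripts.

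AP-1 factors, which pair FOS and JUN family proteins, had log2 fold changes below 0 in 12 of 12 tested members, with a median of -0.52, of which 1 fell and 0 rose. Fosb was the called member, at 298, 247, 217 and 271 CPM in WT and 128, 134, 177 and 109 CPM in St2 KO. The ranges were apart (-1.04 ± 0.18, adjusted p = 0.00923), and the adjusted p was 0.0935 without WT 1 and 0.0977 without the 3 libraries with the fewest B and plasma cell transcripts. Jun was at 251, 192, 194 and 272 CPM in WT and 71.4, 145, 54.4 and 60.98 CPM in St2 KO, no overlap and no call (-1.20 ± 0.26, adjusted p = 0.0733). Batf, Jund and Atf3 had -0.73 ± 0.20, -0.70 ± 0.22 and -1.76 ± 0.55 (adjusted p = 0.237, 0.357 and 0.394), while the abundant Fos and Junb had -0.17 ± 0.10 and -0.23 ± 0.099. In 6 of the 12 genes the St2 KO range lay below the WT range, against 5.24% of tested genes. The summed level of the list was 2213 to 2755 CPM in St2 KO and 2929 to 3363 CPM in WT.

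Among the EGR and NR4A factors, 1 of 7 fell. Nr4a1 encodes NUR77, an orphan nuclear receptor induced by antigen receptor and cytokine signals. Its levels were 1016, 917, 946 and 976 CPM in WT and 534, 459.5, 661 and 581 CPM in St2 KO. St2 KO 3 was the highest of the knockouts and well below each WT library (-0.86 ± 0.12, adjusted p = 0.00137). Egr1, an early growth response factor, was at 42.8, 23.9, 54.9 and 41.9 CPM in WT and 3.70, 8.53, 5.14 and 18.7 CPM in St2 KO. The ranges were again apart, with a wide error and no call (-2.39 ± 0.60, adjusted p = 0.163). Nr4a2 and Nr4a3 had 0.00 ± 0.49 and -0.79 ± 0.35.

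Of 30 immediate early and stress genes 4 fell, 0 rose and 24 had a log2 fold change below 0, with a median of -0.28. Gadd45b, a stress sensor that activates p38, was at 599, 518, 504 and 522 CPM in WT and 187, 214, 240.2 and 210.5 CPM in St2 KO, with no overlap (2.61-fold lower, -1.38 ± 0.14, adjusted p = 1.83e-05). Ier5 was at 402, 289, 303 and 268 CPM in WT and 121, 168, 118 and 97.1 CPM in St2 KO (-1.28 ± 0.20, adjusted p = 0.00353). Its call was lost without WT 1, the highest WT library (adjusted p = 0.0565), and in set TS alone (adjusted p = 0.12). It was also lost without the 3 libraries lowest in B and plasma cell transcripts (adjusted p = 0.0859). Btg2, an antiproliferative gene, was at 900.2, 738, 684 and 778 CPM in WT and 519.7, 443, 496 and 478 CPM in St2 KO (-0.69 ± 0.12, adjusted p = 0.00923). Alox5 KO libraries were low in Btg2 as well, at 474, 537, 504 and 558 CPM. The Btg2 call was lost without WT 1 (adjusted p = 0.111), without St2 KO 2 (0.0982) and in set TS alone (0.0928). It was also lost without the 3 libraries lowest in B and plasma cell transcripts (0.0501). Cd69, a surface C-type lectin that retains lymphocytes in tissue and an early activation marker, was at 306, 323, 274 and 294 CPM in WT and 95.9, 122, 124 and 238 CPM in St2 KO. St2 KO 4 lay near the WT range and the other knockouts at less than 125 CPM (-1.17 ± 0.22, adjusted p = 0.0199). Leaving out WT 1, WT 2, St2 KO 1 or St2 KO 2 ended the call, with adjusted p-values of 0.0969, 0.162, 0.147 and 0.142, as did leaving out the 3 libraries named above (0.176). Gem, a small GTPase induced by activation and outside these lists, was at 885, 754, 699.8 and 739.9 CPM in WT and 497, 450.4, 403 and 375 CPM in St2 KO (-0.72 ± 0.12, adjusted p = 0.00638). The Gem call was lost without WT 1 (0.0673) and St2 KO 2 (0.0572), in set TS alone (0.0928) and without the 3 libraries (0.0544). Not called were Dusp1, Klf6 and Rgs1, at -0.12 ± 0.11, -0.10 ± 0.14 and 0.08 ± 0.11, and Myc at -0.69 ± 0.17 (adjusted p = 0.166). The whole list ran from -2.62 (Ier3, a low and variable gene, not called) to 0.71.

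Effector genes of type 2 immunity were below 0 in 11 of 11 tested members, with a median of -1.46; 2 fell and 0 rose. Csf2 encodes GM-CSF. It was at 273, 267, 277 and 247 CPM in WT and 50.8, 76.1, 86.7 and 83.1 CPM in St2 KO. St2 KO 1 was the lowest, and every knockout was far below every WT library (3.50-fold lower, -1.80 ± 0.18, adjusted p = 1.27e-05). Arg1 encodes arginase 1, which ILC2 use in arginine metabolism. It was at 389, 310.3, 312 and 331 CPM in WT and 23.2, 12.5, 22.03 and 31.0 CPM in St2 KO (18.3-fold lower, -4.19 ± 0.20, adjusted p = 3.83e-10). Il25 KO libraries, which carry the same Yarg allele, had 24.5, 16.5, 21.6 and 23.2 CPM and did not differ from St2 KO by the test (0.03 ± 0.24, adjusted p = 0.984). For this gene the knockout and the reporter cannot be told apart in the comparison with WT. Of the other members, Areg, which encodes the epithelial repair factor amphiregulin, was at 240.3, 252, 308 and 248 CPM in WT and 43.1, 69.1, 68.7 and 109 CPM in St2 KO. The ranges were apart, with no call (-1.86 ± 0.54, adjusted p = 0.337). Il13, which carries a reporter in every group, was at 6.61, 11.6, 11.96 and 12.2 CPM in WT and 3.03, 1.52, 6.24 and 10.6 CPM in St2 KO, overlapping (-1.46 ± 0.61, adjusted p = 0.599). The eosinophil growth factor Il5 was at 47.05, 61.7, 149 and 41.9 CPM in WT and 22.6, 19.5, 74.9 and 92.7 CPM in St2 KO, overlapping as well (-0.36 ± 0.86). Il4 was at 286, 282, 306 and 293 CPM in WT and 228, 202, 216 and 278 CPM in St2 KO, apart and not called (-0.31 ± 0.13, adjusted p = 0.594), and Il2 had -0.05 ± 0.24.

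Tested chemokine genes gave the widest differences in counts and 0 calls. For the 6 tested of 11 listed members edgeR's adjusted p-values were 0.0751 to 0.78, with a median log2 fold change of -2.09. This median and that of the effectors against WT are the same with the genes at 0 counts placed at their bounds. In 4 of 6 the St2 KO range lay below the WT range, against 5.24% of tested genes. Members too low to test went both ways. Ccl4 had 3 counts in WT and 30 in St2 KO, and Cxcl16 7 and 13. Xcl1 had 9 and 4, Ccl17 5 and 3, and Ccl22 0 in both. Ccl1, a ligand of CCR8, was at 58.3, 79.8, 53.4 and 20.4 CPM in WT and 4.71, 10.1, 10.7 and 17.7 CPM in St2 KO. WT 4 lay just above St2 KO 4 (-2.84 ± 0.63, adjusted p = 0.0751). Cxcl1, a neutrophil attractant named after its values were seen, had 207, 48, 176 and 3 counts in WT 1 to WT 4 and 1, 0, 0 and 0 in the St2 KO libraries. Over the group totals that is a ratio of 499, with a counting interval of 89.1 to 19753, but the WT libraries themselves differed widely (adjusted p = 0.281). Ccl3, an attractant of monocytes and lymphocytes, had 2, 100, 18 and 2 counts in WT and 0 in each St2 KO library. Against a floor of 3 counts over the group totals, Ccl3 was at least 46.8-fold lower. That bound covers counting error alone and not the spread among libraries, and 100 of the 122 WT counts were in WT 2 (adjusted p = 0.198). Il25 KO libraries had 2 counts of it in all. Il9, a type 2 cytokine also named after its values were seen, had 6, 1, 1 and 58 counts in WT and 0 in St2 KO. By the same floor, again for counting error alone, it was at least 25.3-fold lower, with 58 of the 66 WT counts in WT 4 (adjusted p = 0.75).

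Ptgs2, which encodes cyclooxygenase 2, the inducible enzyme of prostaglandin synthesis, fell from 139, 102, 108 and 158 CPM in WT to 9.76, 12.2, 5.14 and 2.73 CPM in St2 KO (11.2-fold lower, -3.48 ± 0.57, adjusted p = 0.00788). Leaving out WT 1, St2 KO 1 or St2 KO 2 gave adjusted p-values of 0.0565, 0.0697 and 0.0585, and leaving out the 3 libraries lowest in B and plasma cell transcripts 0.164. It was the sole call among 15 tested eicosanoid genes, whose median was -0.14. Hpgds, which encodes the prostaglandin D2 synthase of haematopoietic cells, had -0.06 ± 0.20, Alox5 0.34 ± 0.30, and the leukotriene receptor gene Cysltr1 -0.14 ± 0.10. Ly6d, a GPI-anchored surface protein known from B lineage and epithelial cells, was at 71.2, 80.95, 51.6 and 28.9 CPM in WT and 0, 1.52, 10.3 and 10.9 CPM in St2 KO (-3.99 ± 0.65, adjusted p = 0.00391). It was also low in Alox5 KO, at 0, 4.33, 2.75 and 9.40 CPM, and the call was lost without WT 2 (adjusted p = 0.059). Beside it stands the lower sum of B and plasma cell markers in St2 KO given above. Of those 14 markers 0 were called, Cd79a had -2.13 ± 0.67 (adjusted p = 0.372), and their part in these results was not tested. Igtp, an interferon-induced GTPase gene, was at 259, 305, 252 and 259 CPM in WT and 204, 209, 227 and 231 CPM in St2 KO (-0.46 ± 0.095, adjusted p = 0.0447). The remaining lower genes were the zinc finger gene Zfp948 (-3.28 ± 0.66, adjusted p = 0.0208), the antisense gene Gm26740 (-1.33 ± 0.16, adjusted p = 0.000119) and the pseudogene Hmgb1-ps8. The calls of Igtp, Hmgb1-ps8 and Zfp948 were lost in 14, 11 and 4 of the 16 fits with 1 library left out, with adjusted p-values of up to 0.401, 0.3 and 0.22.

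**Figure D1:**
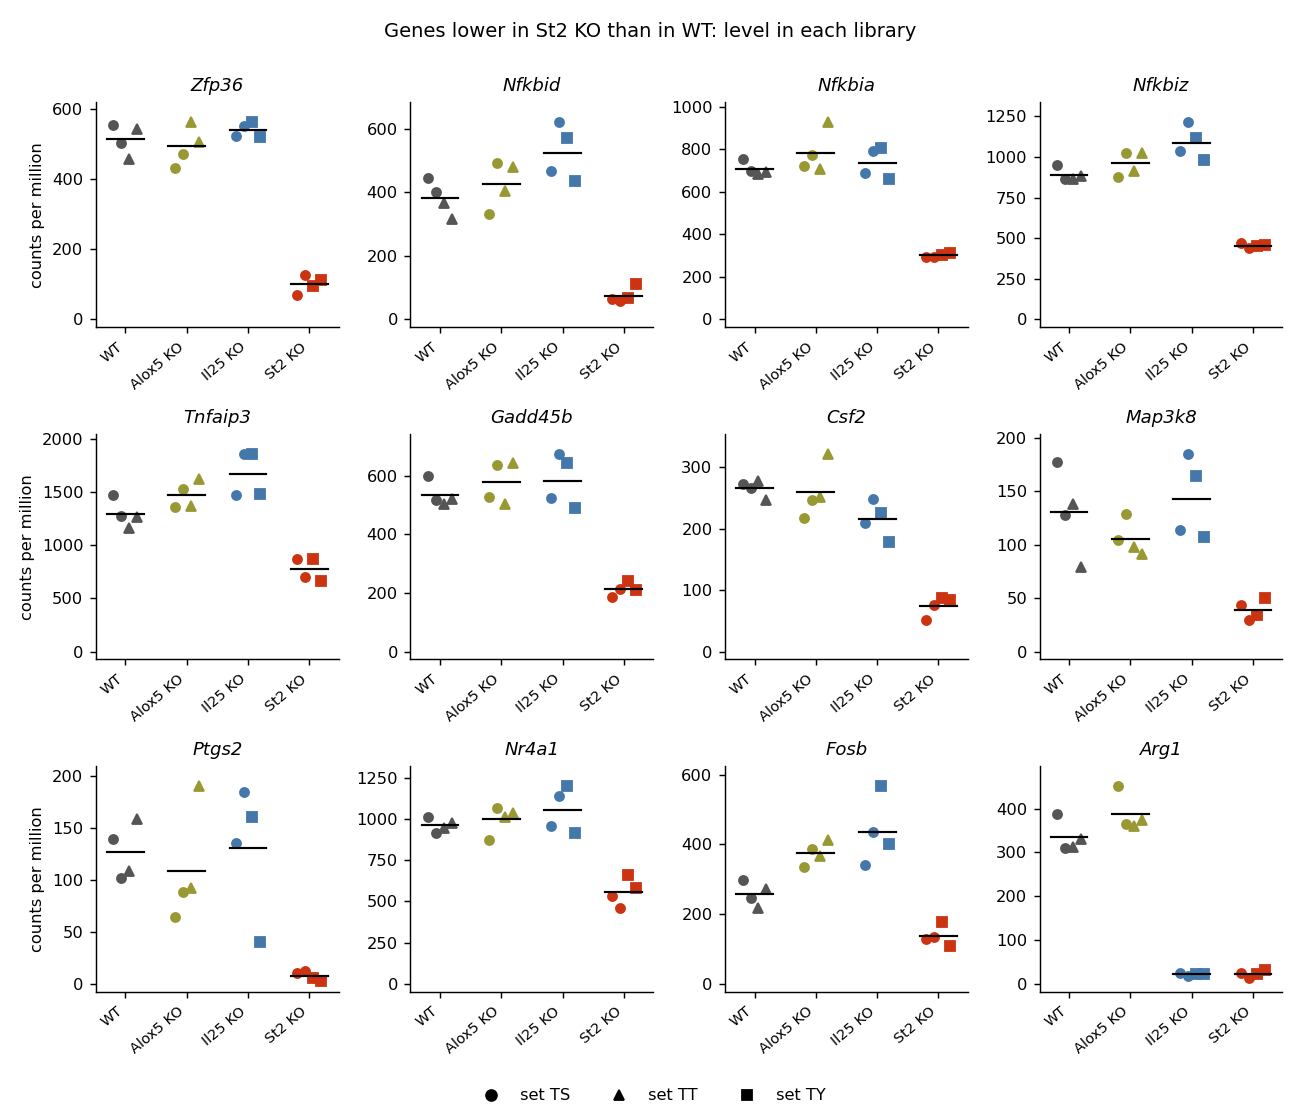
CPM (y axis, linear, from 0) of 12 genes called lower in St2 KO than in WT, in each of the 4 libraries of the 4 genotypes (x axis). Points are libraries, shaped by sample-code set, and bars are genotype means. In each panel all 4 St2 KO points lie below all 4 WT points, and in Arg1 the Il25 KO points (16.5 to 24.5 CPM) are as low as those of St2 KO.

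Cd28, the costimulatory receptor that T cells use beside their antigen receptor, had the smallest p among the genes that rose. It was at 10.5, 18.5, 22.04 and 12.6 CPM in WT and 305, 230.2, 308 and 236 CPM in St2 KO (19.1-fold higher, 4.26 ± 0.37, adjusted p = 1.28e-06). The 4 knockout libraries were alike across sets TS and TY, and Alox5 KO and Il25 KO libraries were at 0, 1.57, 4.33 and 3.46 and 2.88, 6.53, 25.9 and 5.44 CPM. Of 10 tested T cell markers 0 were called, and their median log2 fold change was -0.12. Cd3e, a chain of the T cell receptor complex, was at 11.7, 16.6, 24.7 and 9.77 CPM in WT and 20.5, 17.97, 23.9 and 32.02 CPM in St2 KO (1.19 ± 0.53, adjusted p = 0.632). Cd28 was the sole call among 11 tested costimulatory and inhibitory receptors. Of the 6 other tested genes within 300 kb of Cd28 on chromosome 1, 0 were called. In 3 of them the St2 KO range lay above the WT range, against 3.36% of all tested genes. Raph1, 150 kb away, was at 1.17, 0, 4.86 and 4.48 CPM in WT and 12.1, 7.004, 13.6 and 11.6 CPM in St2 KO (2.83 ± 0.83, adjusted p = 0.251). Icos, another costimulatory receptor gene, was at 734, 654, 690.1 and 586 CPM in WT and 994, 818, 955 and 760.0 CPM in St2 KO (0.40 ± 0.14, adjusted p = 0.468). Gm37039, which lies within Icos and could share its reads, had means of 14.8 CPM in WT and 41.0 CPM in St2 KO (1.39 ± 0.45, adjusted p = 0.387), and it was called against Il25 KO (1.65 ± 0.35, adjusted p = 0.0208). Ctla4, Abi2 and Eif4a-ps4 had -0.78 ± 1.08, -0.13 ± 0.40 and 0.08 ± 0.62, and their groups overlapped.

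Among the other genes that rose, Ptdss1, which encodes phosphatidylserine synthase 1, was at 152, 149.9, 165 and 145 CPM in WT and 289, 298, 248 and 303 CPM in St2 KO (0.89 ± 0.12, adjusted p = 0.000465). Mterf3, a mitochondrial transcription factor gene that overlaps one end of Ptdss1 on chromosome 13, had 0.72 ± 0.15 (adjusted p = 0.0447), and the overlapping predicted gene Gm10767 had 2.61 ± 0.48 (adjusted p = 0.015). The library kit does not mark strand, so reads of these 3 overlapping genes could be shared. The Mterf3 call was lost in 15 of 16 fits with 1 library left out (adjusted p up to 0.37). That of Gm10767 was lost without WT 1, WT 2 or St2 KO 1 (up to 0.109). Fn3krp, which encodes a kinase of glycated proteins, had 0, 0, 6 and 0 counts in WT and 54, 73, 71 and 47 in St2 KO (5.86 ± 0.97, adjusted p = 0.00231). Il25 KO and Alox5 KO libraries had 4 and 5 counts in all. Without WT 1 or WT 2 the adjusted p was 0.0565 and 0.0593. Ctse, which encodes cathepsin E, was at 70.4, 75.9, 45.2 and 62.7 CPM in WT and 171, 175, 169 and 59.96 CPM in St2 KO (1.36 ± 0.26, adjusted p = 0.0208). St2 KO 4 lay inside the WT range, and the Alox5 KO libraries were higher still at 265, 232, 252 and 203 CPM. The Ctse call was lost without WT 1, WT 2, WT 3, St2 KO 1, St2 KO 2 or Alox5 KO 3, with adjusted p-values of 0.0526 to 0.125. Cyp26a1, a retinoic acid-degrading enzyme gene, had 4 counts in WT, all in WT 3, and 42, 57, 10 and 3 in St2 KO (5.47 ± 1.16, adjusted p = 0.0421). Alox5 KO and Il25 KO libraries had 59 and 17 counts of it in all. The Cyp26a1 call was lost in 10 of 16 fits, with an adjusted p of up to 0.229 (without St2 KO 2). It was also lost with DESeq2 in place of edgeR.

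The next 6 called genes were not called between St2 KO and Il25 KO. Tmem87a was at 57.2, 42.8, 46.7 and 74.9 CPM in WT, 144, 174, 128 and 136 CPM in St2 KO and 187, 189, 172 and 176 CPM in Il25 KO. It rose against WT (1.63 ± 0.17, adjusted p = 1.83e-05) and had -0.32 ± 0.11 against Il25 KO (adjusted p = 0.26). AA467197, 2230 kb away on the same chromosome, was at 8.94, 5.01, 12.3 and 6.92 CPM in WT, 54.9, 60.3, 57.6 and 56.9 CPM in St2 KO and 95.9, 91.5, 76.7 and 77.95 CPM in Il25 KO (2.81 ± 0.34, adjusted p = 0.000134). Adat2, a tRNA deaminase gene on chromosome 10, was at 8.94, 15.03, 15.3 and 7.74 CPM in WT, 57.6, 56.95, 40.4 and 45.6 CPM in St2 KO and 50.1, 55.7, 52.97 and 47.9 CPM in Il25 KO (2.21 ± 0.32, adjusted p = 0.00157). H60b, which encodes a ligand of the receptor NKG2D, had 1.64 ± 0.33 (adjusted p = 0.041, lost in 13 of 16 fits, up to 0.196). Pcna-ps2, a copy of Pcna that may share reads with it, had 4.58 ± 0.75 (adjusted p = 0.00231). There were 133 counts of it in St2 KO, 173 in Il25 KO and 4 in WT, and its call was lost without WT 1 or WT 2 (up to 0.0565). The pseudogene Hmgb1-ps8, whose reads could also come from Hmgb1, had 129 counts in WT and 1 in each of St2 KO and Il25 KO. The ratio of WT over St2 KO was 149.2, with a counting interval of 26.3 to 5939. Gm37760, on chromosome 1 at 1920 kb from Cd28, differed from these 6, since it rose against WT and against Il25 KO (1.85 ± 0.35 and 1.97 ± 0.29). The call against WT was lost in 6 of 16 fits, with an adjusted p of up to 0.21 (without WT 2).

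**Figure D2:**
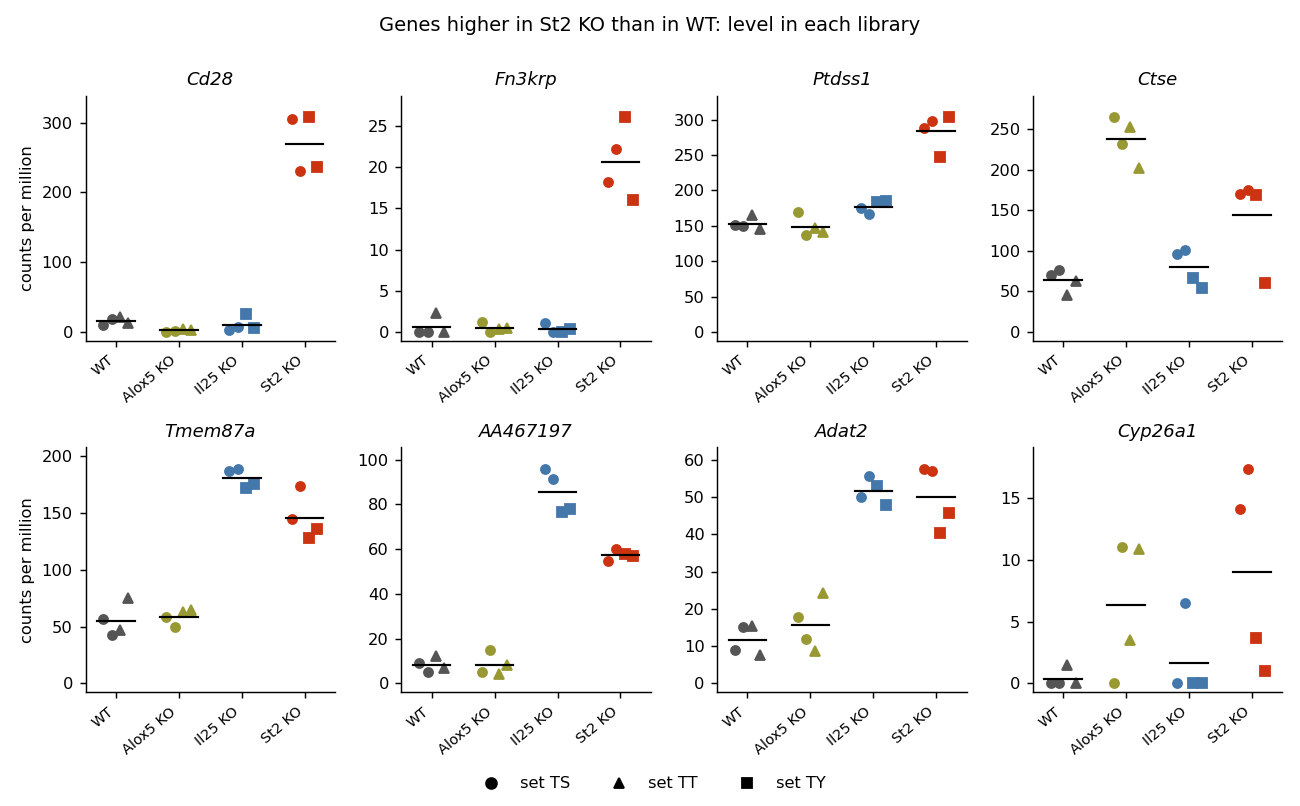
CPM (y axis, linear, from 0) of 8 genes called higher in St2 KO than in WT, in each of the 4 libraries of the 4 genotypes (x axis), with library points shaped by sample-code set and bars at genotype means. Cd28 and Fn3krp are high in the 4 St2 KO libraries alone, Tmem87a, AA467197 and Adat2 in Il25 KO as well, and Ctse and Cyp26a1 in Alox5 KO as well.

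Called genes were also counted by their distance from the engineered loci. Within 40 Mb on either side of Arg1 on chromosome 10, 5 of 204 tested genes were called (2.45%, with Arg1 itself left out, against 0.298% of all genes), and on the rest of that chromosome 1 of 359 was. Those 5 were Adat2, Tnfaip3, H60b, Gm26740 and Hmgb1-ps8, of which H60b, Gm26740 and Hmgb1-ps8 overlap each other, so that reads without strand could be shared among them. Mean levels of Adat2, H60b and Gm26740 were 50.1, 43.9 and 54.9 CPM in St2 KO and 11.8, 15.3 and 121 CPM in WT. In Il25 KO, which has the same allele at Arg1, they were 51.7, 56.2 and 62.1 CPM. Tnfaip3 was at 1665 CPM in Il25 KO, 777 CPM in St2 KO and 1291 CPM in WT. Within 40 Mb of Il1rl1 on chromosome 1, 2 of 263 tested genes were called (0.76%), Cd28 at 20.3 Mb and Gm37760 at 18.4 Mb, and on the rest of that chromosome 4 of 469 were. Gm37760 was at 35.9 CPM in St2 KO and 12.8, 8.97 and 11.2 CPM in WT, Il25 KO and Alox5 KO. The nearest tested neighbours of Il1rl1, the cytokine receptor genes Il18r1 and Il18rap, had 0.88 ± 0.36 and -1.13 ± 0.31 (adjusted p = 0.594 and 0.237). Within 40 Mb of Il13 on chromosome 11, 2 of 538 were called (0.372%), and on the rest of that chromosome 1 of 410 was. The part of the sequence that flanks the engineered alleles in these calls was not tested.

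Il25 KO mice carry the same reporters as St2 KO mice, and both genotypes have 2 libraries in set TS and 2 in set TY. The groups of this comparison do not differ in Yarg or in set, but they differ in Il25 as well as St2, and in transcripts of other cell types. Counts of 17 epithelial markers summed to 1036 in Il25 KO 1, 57 to 70 in the other Il25 KO libraries and 52 to 122 in St2 KO. Counts of 16 macrophage and dendritic cell markers summed to at least 202 in Il25 KO 2 and Il25 KO 3, to 55 and 68 in the other Il25 KO libraries and to 7 to 63 in St2 KO. B and plasma cell markers summed to 2394 to 3273 CPM in Il25 KO and 1108 to 2457 CPM in St2 KO. The part of these cells in this comparison was not tested. It uses the same 4 St2 KO libraries, so its values are not independent of those above. It called 46 genes higher (0.392% of tested genes) and 100 lower (0.852%) in St2 KO, with 1321 at an unadjusted p under 0.05. For the NF-kB feedback genes the log2 fold changes against Il25 KO were -2.81 ± 0.19 for Nfkbid, -1.29 ± 0.093 for Nfkbia, -1.26 ± 0.078 for Nfkbiz and -1.10 ± 0.11 for Tnfaip3. Their adjusted p-values were 1.96e-08, 6.83e-08, 9.69e-09 and 6.48e-06. Zfp36 was at 523, 553, 562 and 521 CPM in Il25 KO (-2.41 ± 0.13, adjusted p = 2.39e-09). Gadd45b had -1.46 ± 0.12, Csf2 -1.54 ± 0.15, Map3k8 -1.85 ± 0.23, Nr4a1 -0.92 ± 0.10, Fosb -1.66 ± 0.15 and Ptgs2 -4.09 ± 0.49, with adjusted p-values from 4.22e-07 to 0.000168. Jun and Egr1, not called against WT, were called against Il25 KO (-1.99 ± 0.22 and -3.84 ± 0.42, adjusted p = 3.08e-05 and 2.92e-05), where their mean levels were 329 and 132 CPM. Both means lay above the level of every WT library. Of the AP-1 list 7 of 12 were called lower in this contrast, of the NF-kB inhibitors 4 of 13 and of the immediate early genes 9 of 30. Summed AP-1 levels were 3459 to 4546 CPM in Il25 KO, above the 2929 to 3363 CPM of WT. The sums overlapped for the NF-kB inhibitors (5107 to 6295 against 4587 to 5230 CPM) and the immediate early genes (7832 to 9494 against 7144 to 8460 CPM). Counts in this contrast thus depend on levels in Il25 KO as well as in St2 KO. Cd28, Ptdss1, Fn3krp and Mterf3 were higher than in Il25 KO too (4.80 ± 0.29, 0.68 ± 0.093, 5.59 ± 0.69 and 0.89 ± 0.12), and Ctse was not called (0.85 ± 0.21, adjusted p = 0.0582).

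**Figure D3:**
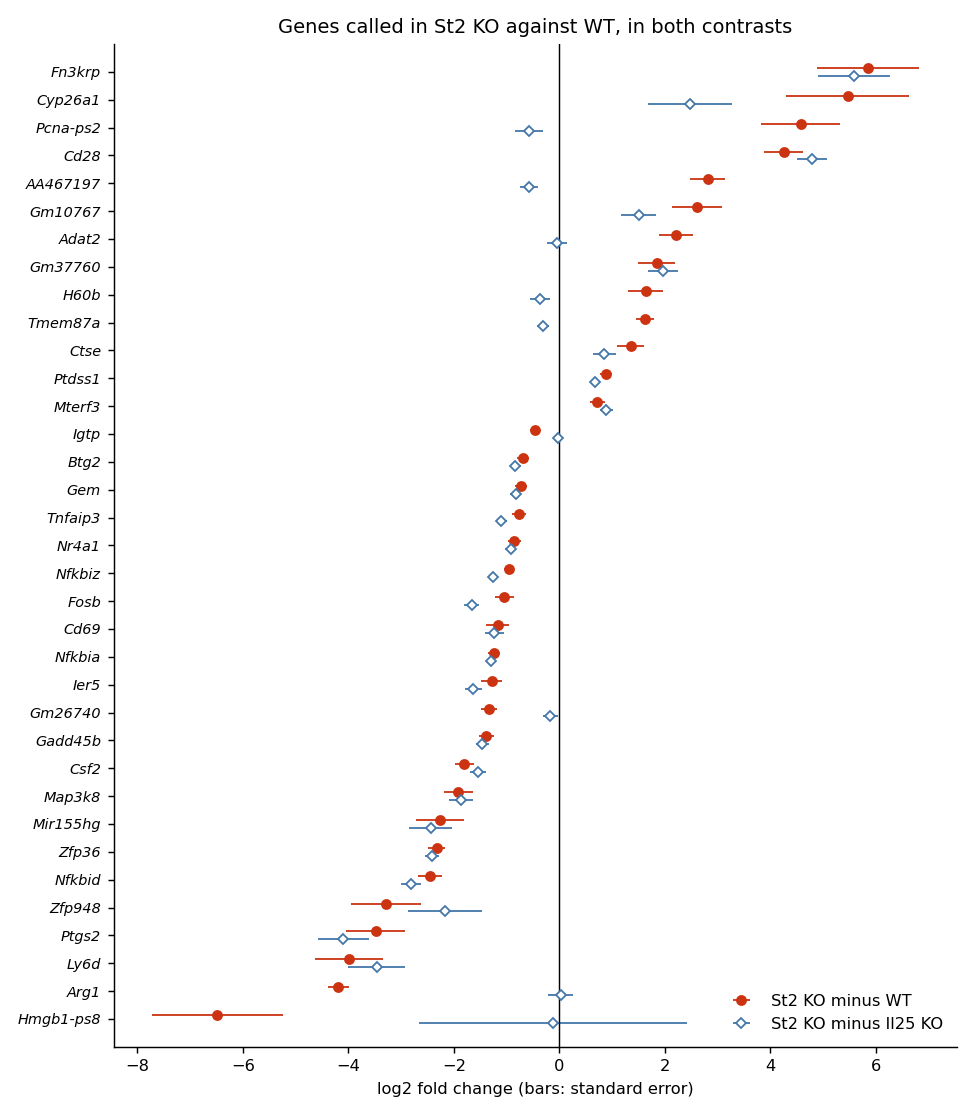
Log2 fold changes (x axis, bars are standard errors) of the 35 genes called in St2 KO against WT (y axis), in that contrast (filled circles) and in St2 KO against Il25 KO (open diamonds), which share the St2 KO libraries. Arg1, Gm26740, Hmgb1-ps8, Adat2, H60b, Pcna-ps2, AA467197, Tmem87a and Igtp lie away from 0 in the first contrast and between -0.57 and 0.03 in the second.

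A second, wider list of ILC2 genes, without Arg1 and Areg, gave 0 calls. Of 29 tested genes in a panel of ILC2 identity and receptor genes, edgeR's test called 0, and the median log2 fold change was -0.14. The St2 KO range lay below the WT range in 3 and above it in 1, against 5.24% and 3.36% of all tested genes. Il17rb, the receptor chain for IL-25, was at 895, 945, 953 and 1027 CPM in WT and 857, 878, 904 and 890.5 CPM in St2 KO, with a 95% interval of -0.26 to 0.04 for the log2 fold change. The intervals were -0.22 to 0.19 for Gata3, -0.36 to 0.35 for Rora, -0.33 to 0.15 for Il7r, 0.10 to 0.70 for Icos and -0.53 to -0.08 for the inhibitory receptor gene Klrg1. A change of 2-fold lies outside each of these 5. Id2, the inhibitor of E proteins that all ILCs need, was at 615, 652, 590.3 and 606 CPM in WT and 399.9, 410.2, 408 and 516 CPM in St2 KO. The ranges were apart, with no call (-0.51 ± 0.12, adjusted p = 0.0909), while with set TS alone it was called (-0.64, adjusted p = 0.0268). Bhlhe40, an activation-linked transcription factor, was at 709, 661, 666 and 684 CPM in WT and 440.3, 415, 369 and 530.1 CPM in St2 KO, apart and not called (-0.66 ± 0.16, adjusted p = 0.145). The interval for Itgae ran from -2.37 to 1.47, too wide to show or exclude a large change.

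**Figure D4:**
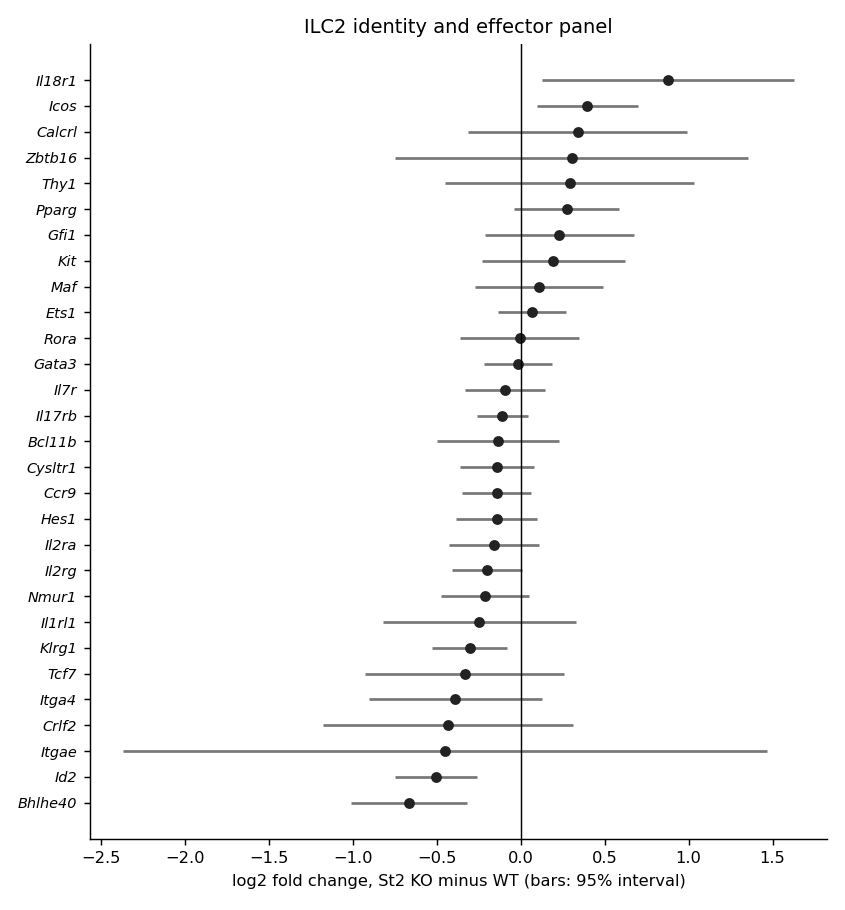
Log2 fold changes of St2 KO minus WT (x axis) for the 29 tested genes of the ILC2 panel (y axis), with bars for 95% intervals. Of the 29, 0 were called. The intervals of Id2, Bhlhe40, Klrg1, Icos and Il18r1 leave out 0, before adjustment over all genes.

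Other programmes are given with their calls and their counts below 0, to set beside 0.298% and 48.2% of all tested genes. Of 34 interferon response genes 1 fell (Igtp) and 31 were below 0, with a median of -0.28. Of 14 MHC class I and antigen processing genes 0 were called, with values from -0.24 to -0.08, all below 0. In 7 of them the St2 KO range lay below the WT range, against 5.24% of all tested genes. The 7 tested mitochondrially encoded genes had values from -0.45 to -0.23 with 0 calls, 6 of them with the St2 KO range below that of WT, against the same 5.24%. Their summed level was 2416 to 2644 CPM in WT and 1806 to 2264 CPM in St2 KO. Other members of that list of 13 were too low to test, among them mt-Co2 and mt-Co3 with 0 counts in WT and St2 KO. The sum is thus a part of the mitochondrial share, which is a mark of RNA and cell quality. The part of RNA and cell quality in the lower genes above was not tested. Of 33 cell cycle genes 0 were called, with a median of 0.53 and 25 above 0, and the groups overlapped in each of them. Cenpe, a mitotic motor gene that with Ccne2 had the smallest p, was at 3.50, 8.48, 14.2 and 46.01 CPM in WT and 9.76, 46.9, 11.02 and 12.6 CPM in St2 KO. Of 20 homing genes 1 fell (Cd69) and 12 were below 0. Of 18 glycolysis genes 0 were called (median -0.06, 11 below 0), and of 15 circadian clock genes 0 (-0.05, 8 below 0). Of 16 NFAT and calcium genes 0 were called (0.02, 7 below 0) and of 17 STAT5 and SOCS genes 0 (-0.09, 13 below 0). Among the last, Pim1, a kinase gene, had the smallest p (-1.26 ± 0.34, adjusted p = 0.237). Of 19 TNF superfamily genes 0 were called and 10 were below 0. Tnfrsf1a, a TNF receptor gene, was at 0.389, 1.93, 1.87 and 0.814 CPM in WT and 12.1, 11.3, 6.98 and 3.75 CPM in St2 KO (3.92 ± 1.14, adjusted p = 0.248). Of 16 survival and death genes 0 were called and 13 were below 0, with a median of -0.28. Birc3, an NF-kB-induced inhibitor of apoptosis, was at 413, 390.5, 339 and 379.9 CPM in WT and 312, 284, 309 and 318 CPM in St2 KO, apart (-0.33 ± 0.12, adjusted p = 0.524). Bcl2a1d, a BCL2 family member, had -1.41 ± 0.55. Of 21 cytokine receptor genes 0 were called (median -0.02, 11 below 0). Of 15 lipid uptake and storage genes 0 were called (0.15, 4 below 0), and of 15 heat shock genes 0 (0.02, 7 below 0). Of 10 MHC class II genes 0 were called (-0.46, 9 below 0), and of 12 arginine and polyamine genes 1, Arg1 (-0.10, 10 below 0).

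**Figure D5:**
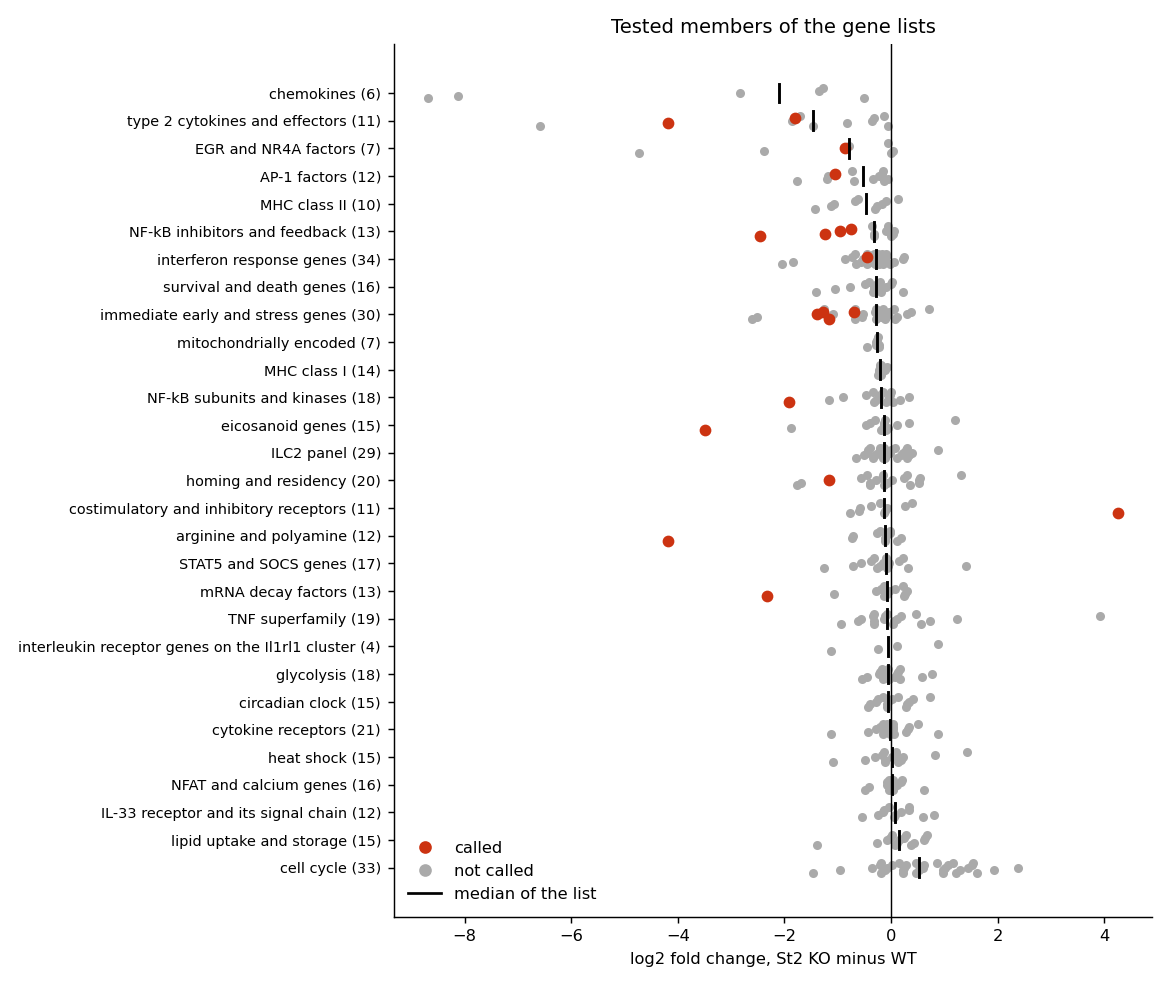
Log2 fold changes of St2 KO minus WT (x axis) for the tested members (points) of the gene lists (y axis, number tested in brackets, ordered by median), with called members in red and a bar at each median. Called members lie to the left except Cd28; values beyond -6 are fitted values of genes with 0 or 1 count in St2 KO and are no measure of size.

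Of the 35 calls, 15 held in every one of the 16 fits that leave out 1 library. These were Arg1, Zfp36, Nfkbid, Nfkbia, Csf2, Nfkbiz, Gadd45b, Gm26740, Map3k8 and Nr4a1 among the lower genes and Cd28, Tmem87a, AA467197, Ptdss1 and Adat2 among the higher. Without the 3 libraries with the fewest B and plasma cell transcripts Adat2 was not called (adjusted p = 0.0501), and the other 14 were. Over those fits the log2 fold change ran from -2.64 to -2.33 for Nfkbid, from -1.28 to -1.17 for Nfkbia, from -2.56 to -2.13 for Zfp36 and from 3.98 to 4.82 for Cd28. Scaled for exon length, the WT levels of the lower genes were highest in Nfkbia, at 439 CPM per kilobase, followed by Gem at 366, Gadd45b at 337 and Csf2 at 332. The St2 KO levels of these genes on that scale were 187, 205, 134 and 92.7.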

How the data were processed

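RNA of flow-sorted duodenal ILC2 was sequenced from Nextera XT libraries, which carry no strand information, per the labels' protocols. The deposited table holds the authors' raw counts per gene. Per the submitters' processing notes the tools were FastQC 0.11.3, STAR 2.4.2a, Picard 1.134 and HTSeq 0.4.1 on GRCm38; their settings are not given in the sources used here. Of 53471 rows, 6 repeated identifiers were left out and 3433 genes without a symbol held 0.184% of counts. From the counts, edgeR 4.0.16 (R 4.3.3, limma 3.58.1) fitted 1 model of genotype and sample-code set to all 16 libraries (quasi-likelihood, robust, TMM scaling, filterByExpr, 11742 genes, 10 residual degrees of freedom), and genes were called at a Benjamini-Hochberg adjusted p under 0.05 over all genes tested. The script was tested on simulated data. Libraries were grouped by their titles. Levels are given as CPM, the count scaled by the library's TMM-adjusted total.

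Depth was 2086864 to 3216937 counts in the 16 libraries, and a log2 fold change of St2 KO against WT had a standard error of 0.262 at the median. Intervals of count ratios and the floor of 3 counts cover counting error only. Alternatives were RLE scaling, other filters, the legacy fit, DESeq2 1.42.0, no set term, a replicate block, set TS alone, only the genotypes compared and leaving out each library. The named genes are the called genes, the targeted and reporter genes, called list members and, where lists had few calls, the members with the smallest p; genes outside that rule were named after their values were seen, as were Myd88, Cd79a, Cd3e and the NF-kB subunits. The gene lists and the comparison were chosen with earlier results of these data known. Promoters are from RefSeq (GRCm38.p6), matched by symbol.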

Additional observations from a re-analysis of the deposited data

Results flagged for a closer look

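In 8 of 74 groups of 4 libraries, over 37 genes, 1 library stood apart from the other 3 of its genotype by Dixon's criterion. For normally distributed values chance alone gives about 1 in 20 groups. For Il13, WT 1 was the lowest WT library with 6.61 CPM, where the others had 11.6 to 12.2 CPM. For Ctse, St2 KO 4 was the lowest with 60.0 CPM, where the others had 169 to 175 CPM. For Nfkbid, St2 KO 4 was the highest St2 KO library with 111 CPM, above 59.1 to 66.1 CPM in the others and below every WT library. For Nfkbia, WT 1 was the highest with 754 CPM, above 684 to 696 CPM. For Igtp, WT 2 was the highest with 305 CPM, above 252 to 259 CPM. WT 3 held the WT counts of Cyp26a1 (1.49 CPM) and of Fn3krp (2.24 CPM), with 0 in the other WT libraries, and St2 KO 1 the single St2 KO count of Hmgb1-ps8 (0.337 CPM). With 0 in the other libraries any count meets the criterion, so 8 of 74 cannot be set against the rate of 1 in 20.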

How the results depend on the processing

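The count of genes called in St2 KO against WT, 35 as reported, was 67 with DESeq2 (24 higher, 43 lower), 58 without the set term (40 lower) and 21 without the 3 libraries lowest in B and plasma cell transcripts (6 higher), a setting added after seeing the data; 34, 33 and 17 of these are among the 35. The genes called higher, 13 as reported, were 8 with the legacy fit, 7 in set TS alone and 7 with only the compared genotypes. Leaving out 1 library gave 19 to 45 calls, 5 to 14 higher and 14 to 31 lower, the lowest of each without WT 1. Against Il25 KO, 146 genes as reported, DESeq2 called 246 (80 higher, 166 lower), set TS alone 33 (8 higher, 25 lower), only the compared genotypes 96 (28 higher), the libraries outside set TY 49 (11 higher, 38 lower), and the libraries other than the 3 named 90 (59 lower). Leaving out 1 library gave 80 to 168 calls, 25 to 50 higher and 52 to 130 lower, with 80 without St2 KO 2. The cause of these differences was not tested; set TS alone and leaving out libraries use fewer samples. RLE scaling, the other filters and leaving out set TY gave 30 to 38 calls against WT. No direction reversed in any of these settings. Counted per gene and setting, and pooled over both comparisons, results of called genes kept direction and call in 1510 cases. They kept direction and lost the call in 244. These totals are not those of the 35 genes called against WT alone.

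Same-numbered libraries of WT and St2 KO had correlations of deviations from their group means of 0.197, -0.041, -0.014 and 0.05, and 1 of 4 WT libraries correlated best with its own number, so the numbers were not taken to pair libraries. With the replicate block 35 genes were called against WT (12 higher, 23 lower), 30 of them among the 35, and 139 against Il25 KO (44 higher, 95 lower). Depth limits low genes most: a count of 0 in St2 KO gives only a bound.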
